A study of Rattus norvegicus with 24 samples.

Results

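Genes whose enzymes break down amino acids and glyoxylate in the liver were followed across 4 diets: Hal, Uroc1, Hpd, Hgd, Fah, Tat, Tdo2, Sds and Agxt. The 9 were taken by gene symbol, as the array's probe annotation gives it, out of 26278 gene names on the array. Each was represented by 1 probe, which was well above background on all 24 arrays and saturated on 0. The data come from livers of 24 male Wistar rats, 6 months old at the start and 9 months old at the end, measured on one-colour Agilent arrays with 1 array per rat. The purified diets were eaten for 12 weeks and crossed low or adequate copper with 30% or 10% sucrose, in a model of fatty liver disease without alcohol. One group of 6 rats ate copper-deficient food (under 0.3 mg/kg) with 30% sucrose, written low Cu/30% sucrose, and another 6 ate adequate copper (125 mg/kg) with 30% sucrose, written adequate Cu/30% sucrose. A further 6 ate deficient food with 10% sucrose, written low Cu/10% sucrose, and 6 ate adequate copper with 10% sucrose, which is the control diet. Starch and dextrin evened out the carbohydrate content, and no diet was free of sucrose.

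The liver is the main site where surplus amino acids lose their nitrogen and their carbon skeletons are burned or turned into glucose. Many of these enzymes are made mostly in hepatocytes, and the genes of several, such as Tat, Tdo2 and Sds, are classic targets of glucocorticoids or glucagon, hormones of fasting and stress. Inherited loss of single steps causes human disease, among them tyrosinaemia (FAH), alkaptonuria (HGD) and primary hyperoxaluria (AGXT).

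A level is the log2 of the signal, minus that of the 75th percentile on the same array. It can be set against the level of the same gene in other rats, but not against another gene's probe. A difference between diets is a log2 value with its standard error (SE) from limma, and it was called where the Benjamini-Hochberg adjusted p over 18643 genes lay under 0.05. The 75th percentile itself lay between 432.8 and 1284 signal units. All 8 hepatocyte markers, such as Alb and Ttr, were above background on 24 arrays. These are whole pieces of liver, so fewer cells of a type and less RNA per cell cannot be told apart.

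Diet and slide were tied to each other. The 6 low Cu/30% sucrose rats were all on slide 1, together with 2 of the adequate Cu/30% sucrose rats. The remaining 4 of these were on slide 2 with 4 low Cu/10% sucrose rats, and slide 3 carried the last 2 low Cu/10% sucrose rats and the 6 control rats. The control diet therefore shared no slide with either 30% sucrose diet. Differences are given as fitted on a mean per diet, and again with slide as a block for the calls on Agxt and Hal and for some others. Values given without the block can move in it as well. On low Cu/30% sucrose against control, Hpd went from -0.34 to -0.64 and Tdo2 from 0.10 to -0.20, none of them called.

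Of the 9 genes, Agxt and Hal changed in at least 1 comparison, and the other 7 passed in none. Agxt was lower than on the control diet on each of the other 3 diets, at 61.7% to 69.9% of the control level. Hal was lower with 30% sucrose at adequate copper, at 62.9% of the control level, and its copper difference was not the same at both sucrose levels. Sds had the widest range between rats, and no difference of it passed the test. With slide as a block 0 of the 9 genes were called in any of the 8 comparisons, and the lowest adjusted p was 0.587. That fit is less precise, since most of what separates the diets also separates the slides: its SE ran from 0.107 to 0.874 over the 9 genes and 8 comparisons, against 0.0828 to 0.554 without the block. In simulated data for 30% sucrose at adequate copper, the fit with the block found 0% of planted log2 changes of 0.5 and 26.9% of changes of 1. Without the block 14.9% and 70.1% were found. A call lost with slide as a block therefore does not show that slide made the difference.

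**Figure D1:**
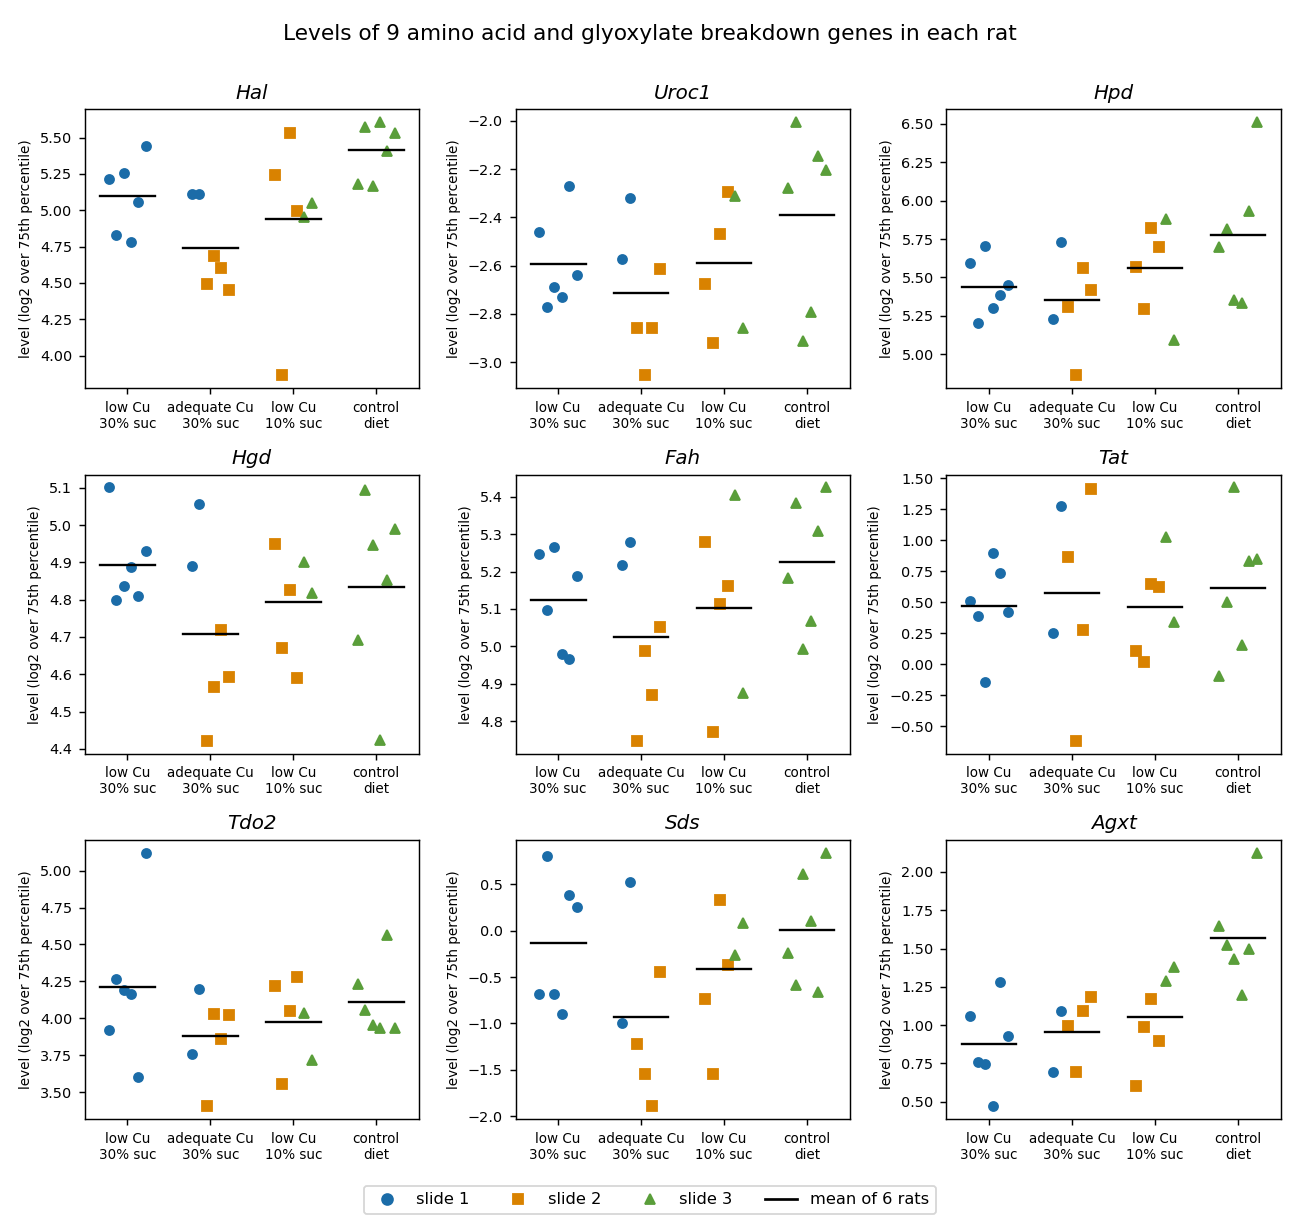
Level of each of the 9 genes in each of 24 rats (log2 over the array's 75th percentile), by diet, with slide as colour and shape and a line at the mean of 6 rats. For Agxt the control rats lay between 1.20 and 2.12 and all 6 rats on adequate Cu/30% sucrose lay at or under 1.18, while in Hal the 2 rats of that diet on slide 1 stood at 5.11 and the 4 on slide 2 between 4.45 and 4.69.

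Agxt encodes alanine-glyoxylate aminotransferase, which turns glyoxylate into glycine and so keeps it from becoming oxalate. Its probe lies on chromosome 9 from 92418052 to 92418111 (rn4, plus strand), and all 4 diets were read with the same 60 bases, shown because the results on this gene rest on them. Current RefSeq annotation gives the gene 2 transcription starts on chromosome 9, and the windows chr9:101122543-101122842 and chr9:101127008-101127307 (GRCr8, plus strand) run from 250 bases before each start to 50 after it. Capitals mark the motif matches described next.
Agxt probe: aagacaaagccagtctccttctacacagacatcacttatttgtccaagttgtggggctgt
Agxt first start: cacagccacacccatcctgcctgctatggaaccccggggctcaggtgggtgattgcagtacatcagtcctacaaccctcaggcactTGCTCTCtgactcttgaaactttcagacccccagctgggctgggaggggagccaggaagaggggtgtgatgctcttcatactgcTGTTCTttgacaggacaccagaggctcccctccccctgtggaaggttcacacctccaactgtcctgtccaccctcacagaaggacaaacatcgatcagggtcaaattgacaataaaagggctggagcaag
Agxt second start: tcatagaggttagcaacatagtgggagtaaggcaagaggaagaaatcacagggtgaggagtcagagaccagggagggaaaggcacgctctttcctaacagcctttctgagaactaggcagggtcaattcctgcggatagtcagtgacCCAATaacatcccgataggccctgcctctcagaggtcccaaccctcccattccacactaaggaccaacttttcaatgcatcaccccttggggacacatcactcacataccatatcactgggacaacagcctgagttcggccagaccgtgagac
The window of the first start held TGTTCT, the short motif of the glucocorticoid receptor, at -80 from the start, and TGCNCNC, a core like that of metal response elements, at -164. The window of the second start held CCAAT at -103. Over 33469 promoter windows of the same length, searched on both strands, these motifs occurred in 20.7%, 49.6% and 37.5%, so each is common. The TATA box (TATAAA), the cAMP response element (TGACGTCA), the C/EBP motif (TTGCNNAA) and the HNF1 motif were searched too and had no match in either window.

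The lowest, median and highest Agxt levels were 0.47, 0.84 and 1.28 on low Cu/30% sucrose. They were 0.69, 1.04 and 1.18 on adequate Cu/30% sucrose. On low Cu/10% sucrose they were 0.60, 1.08 and 1.38, and on the control diet 1.20, 1.51 and 2.12. Every rat on adequate Cu/30% sucrose thus lay below every control rat, which was so for 0.547% of all genes, while both low copper diets overlapped the control rats.

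Against the control diet, Agxt differed by -0.70 on low Cu/30% sucrose (limma, SE 0.16, adjusted p = 0.0348), the 1 call among the 9, where 0.0375% of all genes were called lower and 1.72% higher. It differed by -0.61 on adequate Cu/30% sucrose (SE 0.16, adjusted p = 0.0083), where 2.48% of all genes were called lower. On low Cu/10% sucrose the difference was -0.52 (SE 0.16, adjusted p = 0.0231), again the 1 call among the 9, where 0.595% of all genes were called lower and 18.0% higher. In each case 6 of 6 rats lay below the control mean. The 3 differences share the same 6 control rats, so they are not separate evidence. Means were 0.87 ± 0.28, 0.96 ± 0.21 and 1.05 ± 0.28 on these diets and 1.57 ± 0.31 on the control diet (SD, n = 6 each). Between neighbours in that order, low and adequate copper at 30% sucrose differed by -0.08 (limma adjusted p = 0.862, 95% interval -0.41 to 0.24).

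The call on low Cu/30% sucrose was also lost with normexp background correction, quantile normalization, the authors' scores, no filter on dim probes or a filter on all arrays (limma adjusted p of 0.208, 0.0809, 0.0953, 0.054 and 0.0509). The 3 calls on Agxt depended on single rats to different degrees. At adequate copper the call for 30% sucrose was kept with each rat left out in turn. For low copper at 10% sucrose it was lost without rat 1 or 4 of that diet or control rat 6 (limma adjusted p of 0.0544 to 0.0719). For low Cu/30% sucrose it was lost without any 1 of 8 rats, which were rats 1, 2 and 3 of that diet and control rats 1, 2, 3, 4 and 6 (adjusted p of 0.0502 to 0.11).

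With slide as a fixed block, the differences of Agxt from control were -0.18 on low Cu/30% sucrose, -0.16 on adequate Cu/30% sucrose and -0.24 on low Cu/10% sucrose (limma, SE 0.36, 0.29 and 0.22, adjusted p = 0.998, 1 and 0.942). With slide as a random block they were -0.64, -0.54 and -0.47, and none was called (adjusted p = 0.38, 0.0694 and 0.0779). On low Cu/10% sucrose the 2 rats on slide 3 stood at 1.29 and 1.38, inside the range of the control rats there, and the 4 rats on slide 2 between 0.60 and 1.17. On adequate Cu/30% sucrose the slides overlapped, with a mean of 0.89 for 2 rats on slide 1 and 0.99 for 4 on slide 2. Averaged over both copper levels, 12 of 12 rats on 30% sucrose lay below the 10% sucrose mean (-0.40, SE 0.11), but this did not pass (limma adjusted p = 0.28).

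Hal and Uroc1 encode the first steps of histidine breakdown: histidine ammonia-lyase makes urocanate, and urocanate hydratase carries it on. For Hal the lowest, median and highest levels were 4.78, 5.13 and 5.44 on low Cu/30% sucrose. They were 4.45, 4.65 and 5.11 on adequate Cu/30% sucrose, and 3.86, 5.02 and 5.53 on low Cu/10% sucrose. Control rats stood at 5.17, 5.47 and 5.61. The rats on adequate Cu/30% sucrose did not overlap the control rats, and 1 rat on low Cu/10% sucrose, rat 2, lay far below its group.

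With 30% sucrose at adequate copper, Hal differed from control by -0.67 (limma, SE 0.20, adjusted p = 0.0205), with 6 of 6 rats below the control mean. It was 1 of 2 genes of the 9 called lower in that comparison, beside Agxt, against 2.48% of all genes, and 0 of the 9 were called higher, against 18.4% of all genes. Of all calls in that comparison 88.1% were higher, a share that was 67.4% with quantile normalization and 62.7% with the authors' scores, where 4.38% and 4.92% of all genes were called lower. Low copper against adequate copper gave 0.35 at 30% sucrose (adjusted p = 0.55) and -0.47 at 10% sucrose (adjusted p = 0.117). The difference between those, the copper by sucrose interaction, was 0.83 (limma, SE 0.28, adjusted p = 0.0414), and Hal was the only 1 of the 9 called in it. Of all genes 1.94% had a called interaction above 0 and 18.9% one below 0. The interaction contains the difference at adequate copper with its sign turned, so these calls on Hal are not separate evidence.

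The call for Hal at adequate copper was kept with each rat left out in turn, and the interaction was not. It was lost without any 1 of 14 of the 24 rats (limma adjusted p of 0.0504 to 0.0782), namely rats 1, 3, 5 and 6 on low Cu/30% sucrose, rats 3 to 6 on adequate Cu/30% sucrose, rats 4 and 5 on low Cu/10% sucrose, and control rats 2, 4, 5 and 6. With rat number as a block it was lost too (adjusted p = 0.062). The slide block gave 0.40 for the interaction (adjusted p = 0.684) and -0.76 for the difference at adequate copper (SE 0.36, adjusted p = 1), and a random block gave 0.71 and -0.64 (adjusted p = 0.157 and 0.0888). On adequate Cu/30% sucrose the 2 rats on slide 1 both stood at 5.11, and the 4 on slide 2 stood between 4.45 and 4.69, with no overlap within 1 diet.

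Uroc1 stood at -2.59 ± 0.19 on low Cu/30% sucrose, -2.71 ± 0.26 on adequate Cu/30% sucrose and -2.59 ± 0.27 on low Cu/10% sucrose, against -2.39 ± 0.37 on the control diet (SD, n = 6 each). All 4 groups overlapped. With 30% sucrose at adequate copper it differed by -0.32 (limma, SE 0.16, adjusted p = 0.167), with 5 of 6 rats below the control mean. Under quantile normalization this difference was -0.48 and was called (adjusted p = 0.0413).

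Tat, Hpd, Hgd and Fah encode enzymes of tyrosine breakdown: tyrosine aminotransferase, 4-hydroxyphenylpyruvate dioxygenase, homogentisate dioxygenase and fumarylacetoacetase, which yields fumarate and acetoacetate. None of them was called in any comparison. Hpd averaged 5.44 ± 0.19 on low Cu/30% sucrose, 5.35 ± 0.30 on adequate Cu/30% sucrose and 5.56 ± 0.31 on low Cu/10% sucrose, and 5.78 ± 0.44 on the control diet. All 6 rats of each 30% sucrose diet lay below the control mean for Hpd, by -0.34 on low copper (limma adjusted p = 0.363) and -0.42 on adequate copper (adjusted p = 0.102). The highest control rat stood at 6.51, above every other rat of the study for this gene.

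Hgd and Fah were the least variable of the 9 from rat to rat, with an SD within diets of 0.19 each, and their diet means lay close together. Hgd averaged 4.89 ± 0.11, 4.71 ± 0.23 and 4.79 ± 0.14 on low Cu/30% sucrose, adequate Cu/30% sucrose and low Cu/10% sucrose, and 4.83 ± 0.24 on the control diet. Fah averaged 5.12 ± 0.13, 5.03 ± 0.20 and 5.10 ± 0.24 on the same diets and 5.23 ± 0.17 on the control diet. The 95% intervals of their differences from the control diet ran from -0.37 to 0.30 for Hgd and from -0.44 to 0.14 for Fah over the 3 diets. Within adequate Cu/30% sucrose, Hgd stood at 4.89 and 5.06 on slide 1 and between 4.42 and 4.72 on slide 2, and Fah at 5.22 and 5.28 on slide 1 and between 4.75 and 5.05 on slide 2. For both genes the 2 slides did not overlap within that diet, as for Hal.

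Tat varied from rat to rat more than its diets differed. It ran from -0.14 to 0.90 on low Cu/30% sucrose, from -0.62 to 1.41 on adequate Cu/30% sucrose and from 0.01 to 1.03 on low Cu/10% sucrose, and from -0.10 to 1.43 on the control diet. Its difference from control was between -0.15 and -0.03 on the 3 diets, and at adequate copper the 95% interval of the 30% sucrose difference was -0.64 to 0.57 (limma). A change of that size in either direction could therefore not have been told from the spread.

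Tdo2 encodes tryptophan 2,3-dioxygenase, a haem enzyme that opens the ring of tryptophan and starts the kynurenine pathway. It averaged 4.21 ± 0.51 on low Cu/30% sucrose, 3.88 ± 0.28 on adequate Cu/30% sucrose and 3.97 ± 0.29 on low Cu/10% sucrose, and 4.11 ± 0.25 on the control diet. The highest of all 24 rats, at 5.12, was on low Cu/30% sucrose. No difference of Tdo2 passed, and the largest was its interaction of 0.47 (limma, SE 0.28, adjusted p = 0.24).

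Sds encodes serine dehydratase, which turns serine into pyruvate and feeds glucose production. Its probe lies on chromosome 12 from 37281886 to 37281945 (rn4, minus strand), and is shown because this gene had the widest range of the 9.
Sds probe: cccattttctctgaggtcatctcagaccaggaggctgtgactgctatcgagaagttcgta
The lowest, median and highest levels were -0.90, -0.21 and 0.81 on low Cu/30% sucrose and -1.90, -1.11 and 0.52 on adequate Cu/30% sucrose. They were -1.55, -0.32 and 0.33 on low Cu/10% sucrose, and -0.66, -0.06 and 0.84 on the control diet. All groups overlapped, and the SD within diets was 0.72, against 0.0971 between the duplicate spots of the probe on 1 array. With 30% sucrose at adequate copper 5 of 6 rats lay below the control mean, by -0.94 on average (limma, SE 0.39, adjusted p = 0.0915), and the interaction was 1.23 (SE 0.55, adjusted p = 0.121). Rat 2 on adequate Cu/30% sucrose, at 0.52, was the one above, and without it the differences were -1.23 (adjusted p = 0.0198) and 1.52 (adjusted p = 0.0358). With all rats and slide as a block the difference was -0.80 and the interaction 0.21, and neither was called. On that diet the 4 rats on slide 2 lay between -1.90 and -0.44, and the other rat on slide 1 lay inside their range.

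**Figure D2:**
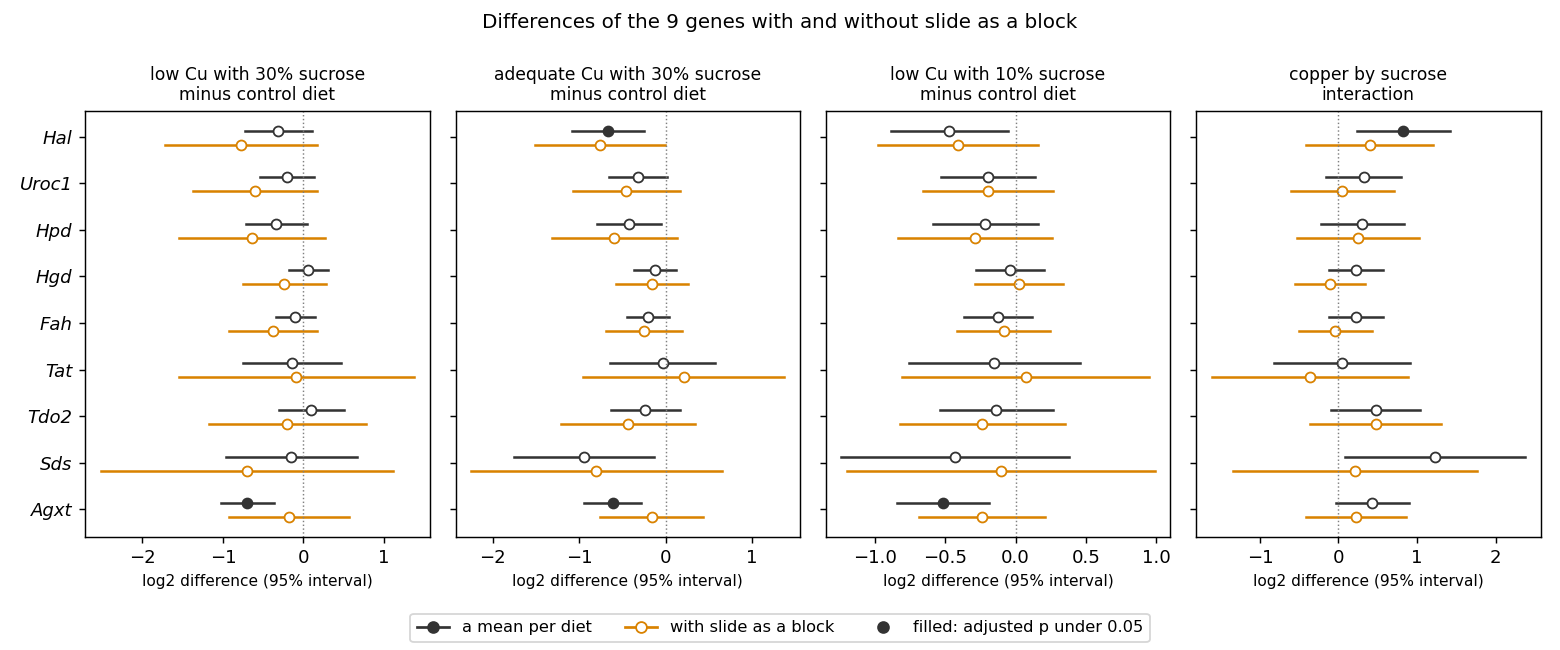
Differences of the 9 genes (log2, with 95% intervals) for 3 diets against the control diet and for the copper by sucrose interaction, from a mean per diet (black) and with slide as a block (orange); filled points were called. Black filled points stand at Agxt in the first 3 panels (-0.70, -0.61 and -0.52) and at Hal for adequate Cu/30% sucrose (-0.67) and for the interaction (0.83), and no orange point is filled.

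Low against adequate copper gave 1 call among the 9 at 10% sucrose, Agxt (-0.52, limma adjusted p = 0.0231). It gave none at 30% sucrose or averaged over both sucrose levels. Averaged over both sucrose levels, 0 of the 9 genes passed, against 0% of all genes (0 of 18643 with limma, with 1640 at an unadjusted p under 0.05). Averaged over both copper levels 0 passed for sucrose as well, against 0% (2013 genes at an unadjusted p under 0.05). Low copper at 30% sucrose and 30% sucrose at low copper also gave 0 calls among the 9, again against 0%. Within slides 1 and 3, where both copper levels met at 1 sucrose level, the mean difference of low minus adequate copper was -0.21 for Hal (exact two-sided permutation p = 0.13) and -0.13 for Agxt (exact p = 0.43). Hal had the lowest p of the 9, and 0.00128 is the smallest that the 784 regroupings can give.

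The 9 genes leaned the same way in the comparison where Hal and Agxt were called, and also with low copper at 10% sucrose. With 30% sucrose at adequate copper, 9 of 9 lay below 0 with a median of -0.32, while 41.6% of all genes lay below 0 with a median of 0.07. In the interaction 9 of 9 lay above 0, with a median of 0.32 beside -0.10 over all genes. With normexp background correction or the authors' scores 8 of 9 did so in both, Tat being the exception, and with quantile normalization 9 of 9, where the median of all genes in the interaction was 0.00135. Under the slide block 8 of 9 lay below 0 in the first and 3 of 9 in the second. The interaction contains the 30% sucrose difference at adequate copper with its sign turned, so these counts are not separate evidence. With low copper at 10% sucrose 9 of 9 lay below 0 too, with a median of -0.20, and 7 of 9 under the slide block. Of all genes 41.7% lay below 0 there, with a median of 0.05. That comparison uses the same 6 control rats, so it is not separate evidence either.

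Other enzymes of amino acid breakdown were taken from 9 lists, which held 84 tested genes besides the 9. With 30% sucrose at adequate copper 18 of the 84 fell (21.4%) and 1 rose, beside 2.48% and 18.4% of all genes, and 69 lay below 0 with a median of -0.23. Of the 18, 9 still passed with each rat left out in turn (Oat, Gpt2, Got2, Glud1, Haao, Kmo, Gcat and Ivd, described next, and Gls2), and without rat 5 on adequate Cu/30% sucrose 10 of the 84 fell. The falls included Oat, ornithine aminotransferase (-0.87, limma adjusted p = 0.00854), Gpt2, a mitochondrial alanine aminotransferase (-0.76, adjusted p = 0.00874), Got2, mitochondrial aspartate aminotransferase (-0.57, adjusted p = 0.00402), and Glud1, glutamate dehydrogenase (-0.45, adjusted p = 0.00937). These 4 belong to the list of lysine, proline, glutamate and aminotransferases, of which 6 of 13 fell. The gene that rose was Bcat2, the branched chain aminotransferase of most tissues other than liver (0.40, adjusted p = 0.0297).

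Called falls occurred in most of the pathways of the 9 genes, beside 2.48% of all genes called lower, but several depended on single rats. Of 24 fits with 1 rat left out, Ftcd passed in 16, Hao2 in 21 and Dmgdh in 20. Gnmt passed in 16 of them, Aldh6a1 in 20 and Bhmt in 9, while Haao, Kmo, Gcat and Ivd passed in all 24. In histidine breakdown Ftcd, which passes the one-carbon unit of histidine to folate, fell by 0.38 (limma adjusted p = 0.0409). In tryptophan breakdown Haao fell by 0.72 (adjusted p = 0.00588) and Kmo by 0.42 (adjusted p = 0.0102), both enzymes of the kynurenine pathway downstream of Tdo2. In the serine, threonine and glycine list Dmgdh (-0.72), Gcat (-0.60) and Gnmt (-0.45) fell, 3 of 14 besides Sds, with adjusted p of 0.0276, 0.0167 and 0.0416. In the glyoxylate list Hao2, a peroxisomal hydroxyacid oxidase, fell by 0.58 (adjusted p = 0.0239), 1 of 10 besides Agxt. In branched chain amino acid breakdown 4 of 17 fell, among them Ivd (-0.54, adjusted p = 0.00621) and Aldh6a1 (-0.46), and in the sulfur list Bhmt fell by 0.42 (adjusted p = 0.0461). In the phenylalanine and tyrosine list 0 of 5 passed besides the members.

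**Figure D3:**
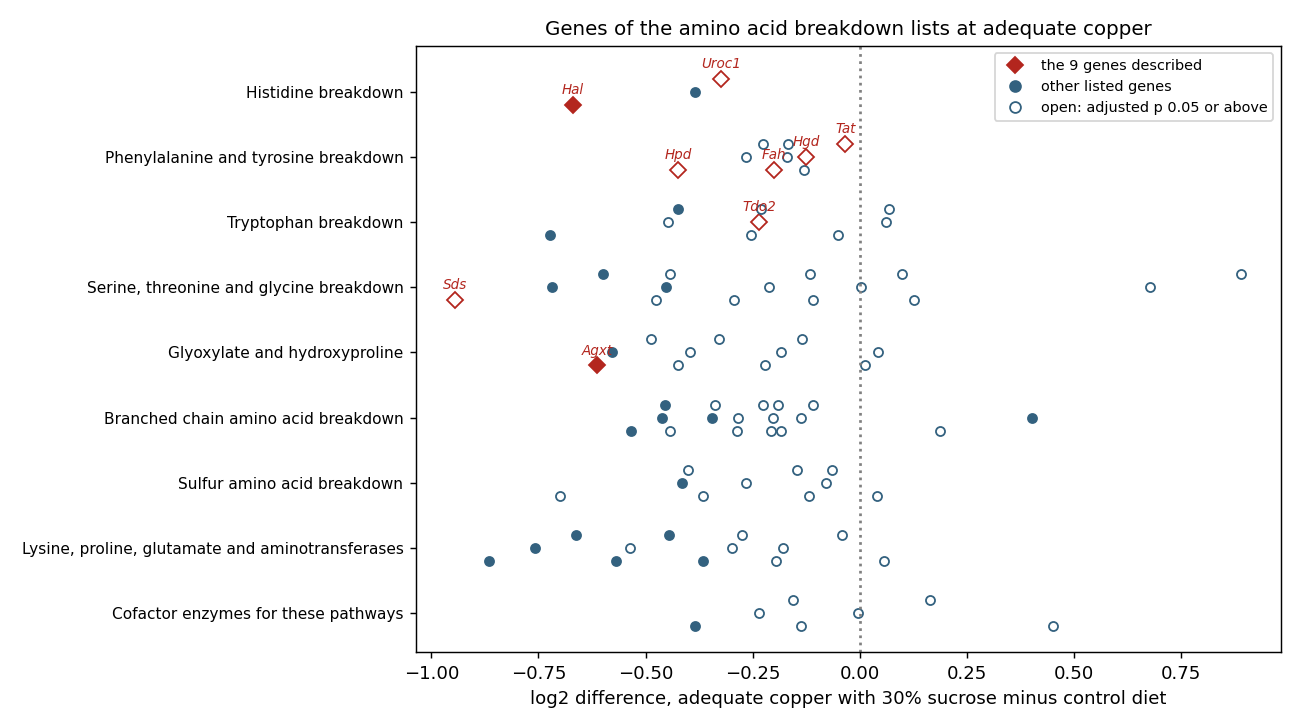
Log2 difference of each listed gene between adequate Cu/30% sucrose and the control diet, by list, with the 9 genes as red diamonds and the others as blue circles; filled symbols passed the test. Hal (-0.67) and Agxt (-0.61) are the filled diamonds, Sds (-0.94) is the leftmost symbol and did not pass, and Oat (-0.87) is the lowest filled circle.

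In the interaction 14 of the 84 passed above 0 (16.7%) and 1 below, beside 1.94% and 18.9% of all genes. The interaction contains the 30% sucrose difference at adequate copper with its sign turned, so it is not separate evidence from the falls there. Of the 14, 8 passed with each rat left out in turn. The count fell to 8 without rat 6 on low Cu/30% sucrose, rat 5 on adequate Cu/30% sucrose, rat 2 on low Cu/10% sucrose or control rat 1, and grew to 22 without rat 2 on adequate Cu/30% sucrose. They included Haao (0.85, limma adjusted p = 0.0185), Hao2 (0.93, adjusted p = 0.012), Hao1 (0.80, adjusted p = 0.0308) and Gls2 (0.48, adjusted p = 0.0169), a glutaminase of the liver. With low copper at 10% sucrose 2 fell, Kmo (-0.33, adjusted p = 0.0461) and Haao (-0.51, adjusted p = 0.0469), and Bcat2 rose (0.50, adjusted p = 0.00834). Of all genes 0.595% were called lower in that comparison and 18.0% higher. There 70 of the 84 lay below 0, with a median of -0.15, beside 41.7% of all genes. On low Cu/30% sucrose against control 0 of the 84 passed, where 0.0375% of all genes were called lower and 1.72% higher. Under the slide block 0 of the 84 were called in any of the 8 comparisons, and with 30% sucrose at adequate copper 67 of 84 still lay below 0, with a median of -0.29. The block also gave 67 below 0 for 30% sucrose at low copper, where 21 were without it. For low Cu/30% sucrose against control it gave 67 as well, where 54 were without it. In the interaction 53 lay above 0 with a median of 0.15, against 74 and 0.33 without the block. The share of all genes below 0 under the block is not given here.

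Among 17 tested regulators of such enzymes, 1 fell and 1 rose with 30% sucrose at adequate copper, beside 2.48% and 18.4% of all genes. Cebpa, a transcription factor of hepatocyte metabolism, fell by 0.72 (limma adjusted p = 0.039; -0.21 with slide as a block, not called). Crtc2, a coactivator of the fasting response, rose by 0.40 (adjusted p = 0.024; 0.17 with slide as a block, not called). Nr3c1, the glucocorticoid receptor, passed in the interaction (0.78, adjusted p = 0.0337; 0.44 with slide as a block, not called), as did Crtc2 (-0.59, adjusted p = 0.0205; -0.55 with slide as a block, not called). In the interaction 1.94% of all genes were called above 0 and 18.9% below 0. Of 9 other fasting and glucocorticoid target genes 3 rose with 30% sucrose at adequate copper, Igfbp1 (1.24, adjusted p = 0.0149), Pfkfb3 (1.06, adjusted p = 0.00126) and Per1 (0.71, adjusted p = 0.0128), and 0 fell. The probes of Pfkfb3 and Per1 were dim, with diet means from -3.93 to -2.80 and from -4.42 to -3.71. All genes had 18.4% called higher in that comparison, 5 of the 9 targets lay below 0 (median -0.04), and with slide as a block none of the 9 was called.

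Markers of other cells moved in the same comparison, where 18.4% of all genes were called higher and 2.48% lower, and 0% with slide as a block. With 30% sucrose at adequate copper 4 of 6 tested neutrophil markers rose, and their summed linear level ran from 0.654 to 301 on that diet (median 2.32), against 0.292 to 0.74 on the control diet (median 0.44). Elane and Ngp of that list did not pass the filter on dim probes. Of 9 T, B and NK cell markers 4 rose (sums of 1.47 to 2.41, against 0.871 to 1.26 on the control diet), and of 6 red blood cell markers 2 rose (69.1 to 719, against 50.9 to 286). Of 8 hepatocyte markers 0 changed (2020 to 3860, against 2060 to 3320), and of 9 pericentral hepatocyte markers, which include Oat, 2 fell and 1 rose (89.6 to 145, against 125 to 220). Of 7 periportal hepatocyte markers, which include Gls2, 1 fell and 0 rose (226 to 321, against 269 to 336). Of 8 stellate cell and fibroblast markers 2 rose, of 6 endothelial markers 1 and of 8 macrophage and Kupffer cell markers 1. Of 5 tested bile duct markers 0 changed. The part of other cell types in the differences of the 9 genes was not tested. Without the 2 rats that stood apart in inflammatory genes, rat 5 on adequate Cu/30% sucrose and rat 2 on low Cu/10% sucrose, the interaction of Hal was 0.58 (limma adjusted p = 0.0785) and Agxt on low Cu/10% sucrose differed by -0.50 (adjusted p = 0.0505). Both calls were lost, the second with the difference nearly as large as with all rats. Rat 2 on low Cu/10% sucrose was also the rat far below its group in Hal (3.86). On low Cu/30% sucrose the neutrophil sum reached 25 (diet median 0.491), and no rat of that diet was left out here.

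From rat to rat within diets, 5 of the 36 pairs of the 9 genes correlated past the threshold by both Pearson's r and Spearman's rho. After each diet mean was taken off, 35 of 36 pairs correlated positively over the 24 rats, with a median Pearson r of 0.35, and 33 did so after slide means were taken off too. Over all 173771403 pairs of tested genes 53.8% were positive, with a median of 0.03, and the arrays' shared scaling and quality enter both values. The strongest pairs joined Uroc1, Hpd and Fah: r was 0.71 for Uroc1 with Hpd (Spearman's rho 0.69), 0.69 for Uroc1 with Fah (rho 0.70) and 0.66 for Hpd with Fah (rho 0.68). Over the 36 pairs the Benjamini-Hochberg adjusted permutation p of these r was 0.00324, 0.00486 and 0.00552, and of the rho 0.00396 each. Hal with Fah (r 0.62, rho 0.60, adjusted permutation p = 0.0063 and 0.0173) and Hgd with Fah (r 0.61, rho 0.65, adjusted permutation p = 0.0113 and 0.00774) passed as well, and by r the other 31 pairs did not. By rho alone Hal with Hgd passed too (r 0.40, rho 0.54, adjusted permutation p = 0.129 and 0.0445). The 2 rats farthest from the median of the gene named first in each pair were then left out. The 5 values of r were 0.62, 0.63, 0.69, 0.60 and 0.55, and rats far out in the second gene alone stayed in. Hal with Agxt, the pair of called genes, had an r of 0.03, and the lowest was -0.22 for Tdo2 with Agxt.

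**Figure D4:**
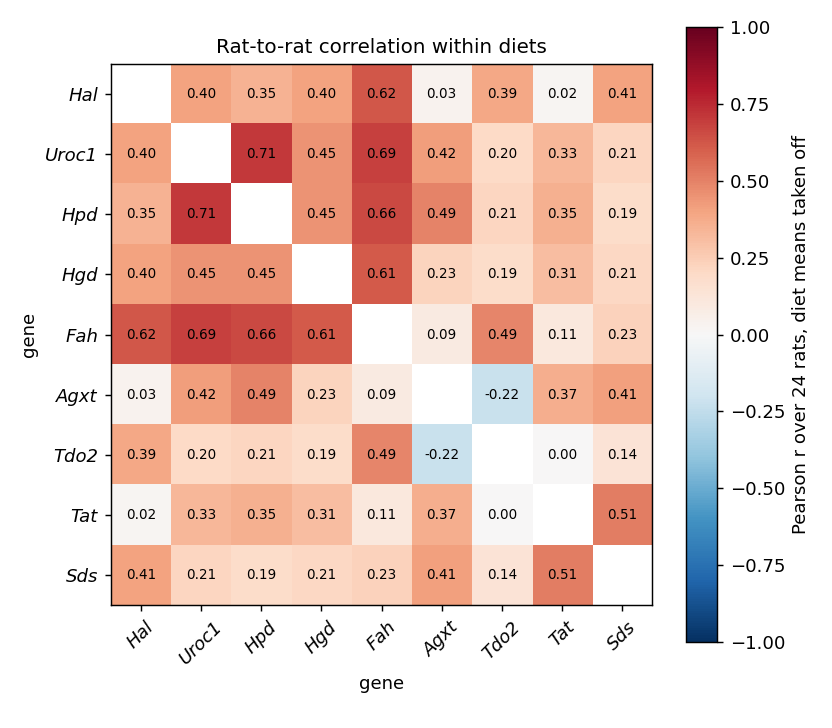
Pearson correlation of each pair of the 9 genes over 24 rats, with each diet mean taken off; colour runs from -1 to 1. Uroc1, Hpd and Fah form the darkest block (0.66 to 0.71), and Agxt is near 0 with Hal (0.03) and negative with Tdo2 (-0.22).

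The promoter windows of those 3 genes are shown because their levels moved together most closely. They lie at chr4:124401869-124402168 (plus strand) for Uroc1, chr12:39041996-39042295 (plus strand) for Hpd and chr1:147980556-147980855 (minus strand, printed in the direction of the gene) for Fah, all in RefSeq's GRCr8.
Uroc1: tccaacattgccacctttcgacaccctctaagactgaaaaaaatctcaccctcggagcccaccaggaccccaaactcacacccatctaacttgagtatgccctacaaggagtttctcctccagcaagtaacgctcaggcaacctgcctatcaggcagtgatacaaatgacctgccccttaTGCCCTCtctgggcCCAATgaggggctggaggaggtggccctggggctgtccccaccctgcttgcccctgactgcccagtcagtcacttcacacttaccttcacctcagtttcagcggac
Hpd: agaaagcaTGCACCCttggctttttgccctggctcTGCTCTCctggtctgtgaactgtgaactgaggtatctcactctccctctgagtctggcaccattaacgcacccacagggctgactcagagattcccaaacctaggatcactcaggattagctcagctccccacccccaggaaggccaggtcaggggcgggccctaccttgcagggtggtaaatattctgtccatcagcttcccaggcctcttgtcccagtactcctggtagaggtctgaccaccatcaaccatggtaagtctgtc
Fah: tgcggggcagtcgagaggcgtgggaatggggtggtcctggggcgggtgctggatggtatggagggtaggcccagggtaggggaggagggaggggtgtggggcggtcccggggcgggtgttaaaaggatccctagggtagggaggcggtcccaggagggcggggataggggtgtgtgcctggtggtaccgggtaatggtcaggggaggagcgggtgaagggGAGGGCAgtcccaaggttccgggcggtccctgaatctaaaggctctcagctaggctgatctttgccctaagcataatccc
Capitals mark CCAAT and TGCNCNC on either strand. TGCNCNC occurred once in Uroc1 at -70, once in Fah at -30 and at 2 places in Hpd, beside 49.6% of all windows with at least 1, and Uroc1 also held CCAAT at -56. None of the 3 windows held any of the other motifs searched. Windows were found for 7 of the 9 genes.

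Of the 27 genes listed as most like a member over the 24 arrays, few were enzymes of amino acid breakdown. Hal was most like Glud1 (r 0.91, and 0.86 with diet means taken off) and Agphd1 (0.90), followed by Qdpr (0.89), which recycles the cofactor of phenylalanine hydroxylase. Hpd was most like Gnmt (r 0.87), a glycine methyltransferase, and Tat was most like Pck1 (r 0.77), which commits oxaloacetate to glucose production. Fah was most like Ptpmt1 (0.91), a mitochondrial phosphatase, and Uqcrc1 (0.90) of the respiratory chain. Agxt was most like Zbtb48 (r 0.84, and 0.71 with diet means taken off) and Slc22a7 (0.81), an organic anion transporter, and Sds was most like Stard7 (0.80). Uroc1 was most like Pm20d1 (r 0.85), Hgd like Cyp4f1 (0.72), a cytochrome P450, and Tdo2 like Eif3e (0.85), a subunit of a translation initiation factor. These correlations describe the arrays, which share slides and scaling, and each is the highest of those with all other genes tested.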

How the data were processed

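Arrays of 24 rat livers, 1 per rat and 6 per diet, were used as deposited. Per the file headers, spots were read with Agilent Feature Extraction 10.7.3.1, and the deposited processed signal is an intensity with background subtracted and no scaling between arrays. The mean, local background and background-subtracted signals are further deposited intensity values. The authors' series table holds a score per spot, whose scale is not given in the sources used here. For an alternative it was multiplied by 662 and raised by 80.4, an assumed scale. Probe positions refer to rn4, per the file headers.

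Non-uniform and outlier spots (0.652%) were left out, the 75th percentile of log2 signal was subtracted per array, and spots were averaged per probe. Probes well above background on at least 6 arrays were kept (21181 of 30367), and the brightest stood for a gene name, giving 18643 genes. Limma 3.58.1, run in R 4.3.3 with data.table (version 1.17.8), fitted a mean per diet over 24 arrays and 8 comparisons, with Benjamini-Hochberg adjustment over all genes. Copper within slides was tested by exact permutation, and correlations by 100000 permutations. Figures were drawn with matplotlib 3.10.9 (Python 3.11.15).

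The members, the lists and the tests were chosen with earlier results of these data known. All 9 members are described in the main comparisons. Further genes were named per list and comparison, up to 4 called with the smallest p, else the 2 with the smallest p, and the text gives a selection; 1 gene is not reported here. For each member the 3 most correlated genes were listed. As alternatives, background was corrected with normexp (offset 50), arrays were scaled to equal quantiles, or the authors' scores were used with a floor of 5. Other filters on dim probes, a block for slide or for rat number, averaged probes, array weights, an intensity trend, fewer rats in the fit, and each rat left out were also tried. Leaving out 2 rats together and quantile normalization with a slide block were added later. The fit was tested on simulated data. Same-numbered rats of different diets did not deviate together (correlations of -0.29 to 0.36), so numbers do not pair rats. Sequences other than probes are from RefSeq, GRCr8. The labels do not say whether rats were processed in batches other than slides.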

Additional observations from a re-analysis of the deposited data

Results flagged for a closer look

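One rat stood apart from its group in 1 of 36 groups examined (9 genes on 4 diets), and chance alone would single out about 1 in 20. This was Hal on low copper with 10% sucrose, where rat 2 had a level of 3.86 and the other 5 rats lay between 4.95 and 5.53. The copper difference of Hal was not the same at both sucrose levels: the copper by sucrose interaction was 0.83 (limma adjusted p = 0.0414), from 0.35 at 30% sucrose and -0.47 at 10% sucrose.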

How the results depend on the processing

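Of the 9 genes, 1 was called on low copper with 30% sucrose against control, and 0 with normexp, quantile normalization, the authors' table, no filter, the filter on all arrays, or slide as a fixed or random block. The 1 called in the interaction became 0 with no filter, slide as a fixed or random block, or without 2 rats, and 0 with replicate number as a block (Hal, 0.83, adjusted p = 0.062), where the other calls on members were kept. The 1 called with low copper at 10% sucrose became 0 with either slide block, with only the rats of both diets, or without 2 rats. The 2 called with 30% sucrose at adequate copper became 0 with either slide block, though Hal was -0.644 with the random and -0.759 with the fixed block (-0.669 without), and Agxt -0.545 and -0.163 (-0.613 without). Quantile normalization with slide block gave 0 in all of these. With the replicate block 9 pathway genes passed above 0 in the interaction, 7 with quantile normalization, 9 with the authors' table, 3 without 2 rats and 0 with each slide block. The 18 that fell with 30% sucrose at adequate copper were 35 with array weights, 5 with slide as a random block and 0 with it fixed. With each rat left out in turn, members called numbered 0 to 2 in the interaction, 0 to 1 with low copper at 10% sucrose and on low copper with 30% sucrose, and 2 to 3 with 30% sucrose at adequate copper. Pathway genes numbered 10 to 25 for the falls (10 without rat 5 on adequate copper with 30% sucrose) and 8 to 22 for the interaction. With slide as a block the sign turned for the interactions of Hgd (-0.106) and Fah (-0.0398), for low copper at 30% sucrose in Hal (-0.0123) and Hgd (-0.0791), and for 30% sucrose at low copper in Agxt (0.0568, and 0.0547 with quantile normalization as well). The cause of these changes was not tested, beyond the tie between diet and slide. All 9 genes lay above background on every array; whether signal strength bears on these calls was not tested.

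Over all genes, the 3888 calls for 30% sucrose at adequate copper became 2342 with normexp, 2506 with quantile normalization, 2463 with the authors' table and 2267 with the filter on all arrays, and 1226 and 0 with slide as a random and a fixed block. The 3469 for low copper at 10% sucrose became 2056, 2058, 1950 and 1866 in the same order, then 2285 and 0. The 3884 in the interaction became 2572 with quantile normalization, 2393 with the authors' table, 2294 with the filter on all arrays, and 1807 and 10 with the slide blocks; its share above 0 was 9.29%, but 30.8% with quantile normalization and 32.5% with the authors' table. The share of higher calls for low copper at 10% sucrose was 96.8%, and 81.5% and 79.1% under those settings. The 328 on low copper with 30% sucrose against control became 0 with normexp or either slide block, 4 with quantile normalization, 2 with the authors' table, 10 with the filter on all arrays, 75 with no filter, 639 with the replicate block, 986 with only the rats compared and 2124 with array weights. Comparisons with 0 calls gave 875 for mean copper with array weights, and 20 for low copper at 30% sucrose and 6 for 30% sucrose at low copper with the fixed slide block.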
